A study of Mus musculus with 15 samples.

Results

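Heart cells of mouse embryos carrying Nkx2-5Cre::Rosa26tdTomato were compared between 2 embryonic days, E7.75 and E8.25. Every cell with at least 1000 genes above 0 CPM (counts scaled to the total of that cell) was used, which took 91 and 95 cells from the 2 E7.75 libraries and 94 and 93 cells from the 2 E8.25 libraries. These are 373 of the 384 cells deposited for the 4 libraries, and 373 of the 1339 cells that pass the same limit in the 15 libraries of the series. Cre recombinase, named here for the Nkx2-5 gene, switches on the red fluorescent protein tdTomato from the Rosa26 locus, and the reporter stays on in every descendant of a cell in which Cre has acted. Whether each picked cell was red, and which libraries were sorted by FACS and which only treated with trypsin, was not stated. The same step in Isl1Cre::Rosa26tdTomato embryos (364 cells in 4 libraries) and the next Nkx2-5Cre step, from E8.25 to E8.75 (369 cells in 4 libraries, of which the E8.25 pair is shared), served for comparison. The titles number the embryo of both E7.75 libraries as 2 and that of both E8.25 libraries as 3, so the libraries of a stage probably came from 1 embryo. The p-values then rest on differences between libraries that may be technical ones only, and stage, embryo and embryo sex cannot be told apart.

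In the mouse embryo, heart precursors first lie in a crescent of mesoderm directly above the foregut endoderm. They then meet at the midline as a tube, which starts to beat once its muscle cells have built sarcomeres, the repeating units of myosin and actin filaments held between Z-discs. Cells of the second heart field, marked by transcription factors such as Isl1 and Tbx1, stay undifferentiated for longer and are added at the ends of the tube, while Nkx2-5, Gata4 and Tbx5 act in the differentiating muscle.

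The total recovered count was 38321215 and 21981238 in the E7.75 libraries and 21286936 and 14355997 in the E8.25 libraries. The median cell held 360929 and 203311 counts at E7.75 and 185456.5 and 115013 at E8.25, with 8716, 7180, 6468.5 and 5614 genes in the same order, so depth fell with stage. No cell name was shared between libraries. The libraries of a stage differed by more than counting noise (chi-square per degree of freedom 63.5 at E7.75 and 48.6 at E8.25), which includes the drawing of different cells. The mean CPM over the cells of a library is its level, and levels are given for replicate 1 and then replicate 2. Reads come from the 3' end of the RNA, so levels are compared between stages and not between genes.

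The labelled tissue was checked against defining markers. The summed level of 9 cardiomyocyte markers was 14725 and 13355 CPM at E7.75 and 37266 and 34783 CPM at E8.25, with none at 0 in any library. The sum of 6 markers of the crescent mesoderm was 835 and 841 CPM at E7.75 and 140.2 and 168 CPM at E8.25. Endoderm markers (8 genes) summed to 974 and 362 CPM at E7.75 against 51.6 and 54.1 CPM at E8.25, so the first E7.75 library stands apart in them. In that library 68 of 91 cells carried at least 300 CPM of these markers with 3 or more detected, against 8, 0 and 1 cells in the others. At 1000 CPM the numbers were 10, 5, 0 and 0. Spink1 alone had a count in all 91 cells of that library, with a lowest value of 73.1 CPM and a median of 269 CPM. Spink1 by itself thus nearly reaches the 300 CPM limit in the median cell there, and cells at that limit need not be endoderm. Endothelial markers (9 genes) summed to 187 and 322 CPM at E7.75 and 319 and 374 CPM at E8.25. Blood markers were near 0 (at most 0.942 CPM), and epicardial and neural markers summed to between 5.87 and 17.3 CPM.

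From E7.75 to E8.25 the RNAs of natriuretic peptides, contractile proteins, calcium-store proteins and several mitochondrial proteins rose, and those of 12 of 21 crescent mesoderm genes, 7 of 22 second heart field genes and 10 of 16 epithelial genes fell. Of 10670 genes tested, 1457 passed (13.7%) at a limma adjusted p under 0.05: 806 rose (7.55%) and 651 fell (6.1%). Of these, 548 rose and 346 fell by more than 1 on the log2 scale, and 181 rose and 94 fell by more than 2. The median change of all genes tested was -0.03. Counts of list genes below are to be set beside the 13.7% of all genes that passed. The 2 stages did not overlap for 5937 genes (55.6% of those tested). With 1 library left out the number of genes that passed was 882 without E7.75 replicate 1, 849 without E7.75 replicate 2, 1055 without E8.25 replicate 1 and 872 without E8.25 replicate 2. With cells thinned to 5000 counts it was 533. Changes are differences of log2(mean CPM + 1) ± SE, a scale that understates the changes of low genes. Fitted changes from or to levels near 0 depend on the pseudocount of 1.

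**Figure D1:**
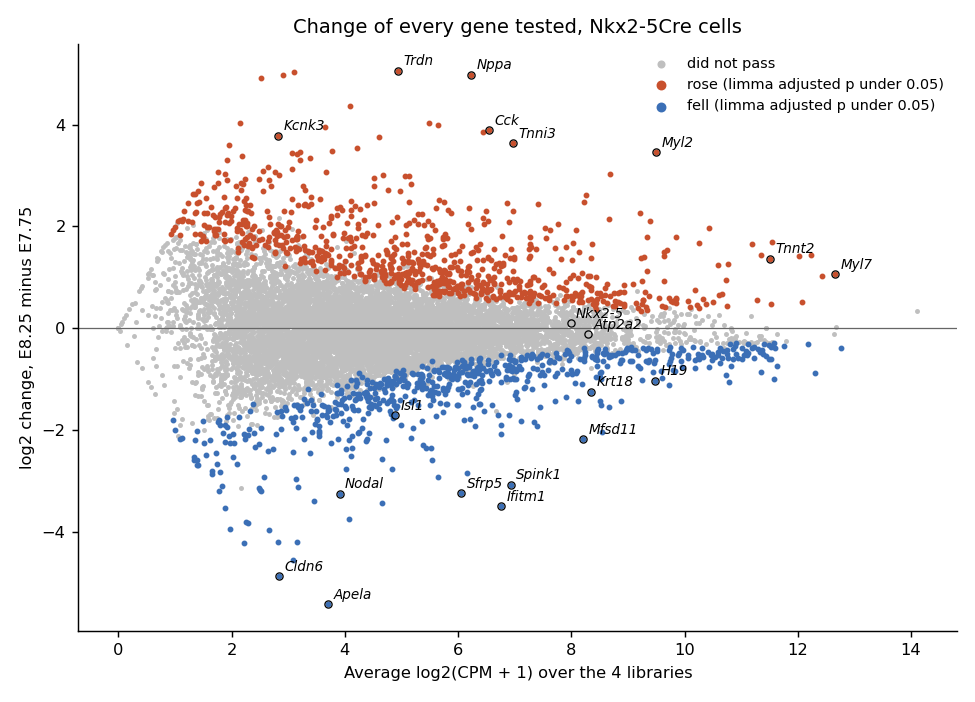
Log2 change from E7.75 to E8.25 in Nkx2-5Cre cells (vertical axis) against the average log2(CPM + 1) level (horizontal axis), 1 point per gene tested, orange for genes that rose by limma's test, blue for genes that fell and grey for the others. Trdn (5.06) and Nppa (4.98) lie near the top, Apela (-5.41) and Cldn6 (-4.86) near the bottom, and Nkx2-5 and Atp2a2 close to 0.

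The 12 largest changes in each direction were taken among well-expressed genes that passed and whose stages did not overlap, so for these genes the lack of overlap was a condition and not a finding. The risers were Nppa, Cox6a2, Nppb, Cck, Chchd10, Tnni3, Myl2, Hspb1, Klhl31, Casq1, Hk1 and Myl1. Tnni3 encodes cardiac troponin I, Myl2 the regulatory light chain of ventricular myosin, Cox6a2 the muscle form of a cytochrome c oxidase subunit and Hk1 hexokinase, the first enzyme of glycolysis. Their changes ran from 2.61 ± 0.18 (Myl1, a myosin light chain; chr1:66924295-66945404) to 4.98 ± 0.29 (Nppa). The mitochondrial protein gene Chchd10 (chr10:75933130-75937747) stood at 23.8 and 20.2 CPM at E7.75 and 371 and 299 CPM at E8.25, a change of 3.85 ± 0.16 (adjusted p = 2.45e-11). Hspb1 (chr5:135887919-135889563), a small heat shock protein of muscle, went from 146 and 139 CPM to 1336 and 1041 CPM, and Klhl31 (chr9:77636500-77660127), a kelch protein of striated muscle, from 14.1 and 9.39 CPM to 88.0 and 112 CPM.

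The fallers included Ifitm1, Sfrp5, Spink1, Pkdcc, Rpph1, Dusp9, Slc23a1, Adarb2, Mfsd11, Hsd11b2 and Xaf1. Ifitm1 (chr7:140967221-140969825), a membrane protein gene of early mesoderm, stood at 319.7 and 409.7 CPM at E7.75 and 18.8 and 52.9 CPM at E8.25. Both E7.75 libraries were far above both E8.25 libraries, with a change of -3.49 ± 0.36 (adjusted p = 2.27e-06). Sfrp5 (chr19:42197971-42202252), a secreted Wnt antagonist of the crescent, went from 259 and 160.4 CPM to 20.3 and 21.5 CPM. This was a fall of -3.24 ± 0.48. Pkdcc, a secreted kinase, stood at 174 and 107 CPM and then at 15.9 and 19.3 CPM, and Dusp9, a MAP kinase phosphatase on the X chromosome, at 126 and 102 CPM and then at 20.3 and 16.5 CPM. The last of the 12, Xaf1, had an adjusted p of 0.254 without E7.75 replicate 2 and 0.346 without E8.25 replicate 2. Of the 24 genes chosen as the 12 largest in each direction, 22 passed in the same direction under every alternative tried; the others were Hsd11b2, which lost the call in thinned cells, and Xaf1.

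**Figure D2:**
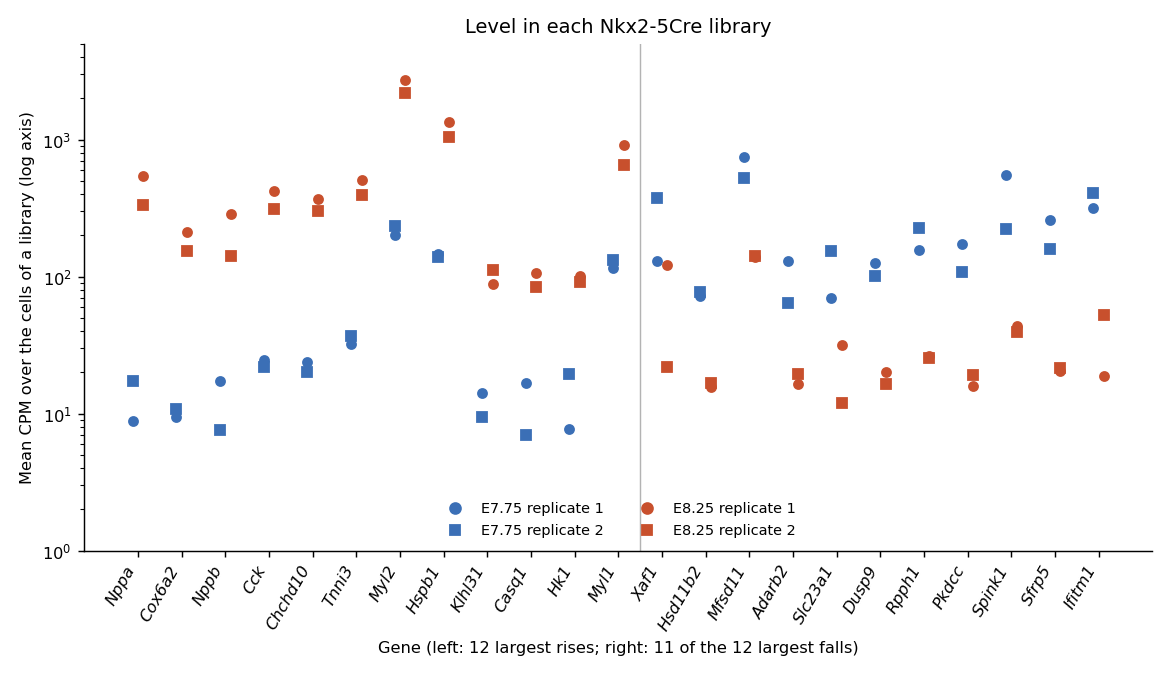
Level in each of the 4 Nkx2-5Cre libraries (mean CPM on a log axis) for the 12 largest risers and 11 of the 12 largest fallers, blue for E7.75 and orange for E8.25, with circles for replicate 1 and squares for replicate 2. Nppa, Nppb, Cck, Myl2 and Tnni3 stand higher in both E8.25 libraries than in both E7.75 libraries, and Ifitm1 and Sfrp5 lower.

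Sarcomere genes rose almost throughout. Of 54 genes on 3 lists (thick filament, thin filament, and Z-disc, titin and M-band), 50 were tested, and 43 rose and 1 fell, with a median change of 1.44 against -0.03 for all genes tested. The lists were chosen with results of these data known, and a gene that is at or near 0 before differentiation can pass the level filter only through the later stages.

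In the thick filament, 10 of 11 genes rose (median 1.44), and Myh9, a nonmuscle myosin, did not pass. The ventricular light chain gene Myl2 (chr5:122100951-122113472) stood at 202 and 236 CPM at E7.75 and 2708 and 2182 CPM at E8.25. The stages were far apart, with means of 219 ± 24.0 and 2445 ± 372 CPM (SD, n = 2) and a change of 3.46 ± 0.18 (adjusted p = 3.95e-10). Of the 2 heavy chains of cardiac myosin, Myh7, the slow form (chr14:54970684-54994626), went from 141 and 110.1 CPM to 616 and 821 CPM (2.49 ± 0.16), and Myh6, the fast form (chr14:54941921-54966927), from 456 and 305 CPM to 913 and 1065 CPM (1.39 ± 0.17). Myh6 and Myh7 are neighbours with similar sequences, and how reads matching both were counted was not stated. The atrial light chains were already high at E7.75: Myl7 (chr11:5896637-5898782) stood at 4536 and 4385 CPM and then at 10266 and 8695 CPM, and Myl4 (chr11:104550663-104595753) at 2848 and 2992 CPM and then at 8084 and 7892 CPM. Their changes of 1.07 and 1.44 both passed. Myl3 rose by 1.98, Mylk3, the kinase that phosphorylates the cardiac regulatory light chain, by 2.33, and Mybphl, a relative of myosin binding protein C, by 3.13.

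In the thin filament, 12 of 14 genes rose (median 1.44), 1 fell and Tpm2 did not pass. Cardiac troponin I (Tnni3, chr7:4518305-4524229) stood at 32.3 and 36.9 CPM at E7.75 and 505 and 395 CPM at E8.25, a rise of 3.64 ± 0.20 (adjusted p = 5.18e-10). Slow skeletal troponin I (Tnni1, chr1:135779434-135810989), which precedes Tnni3 in the embryonic heart, went from 1088 and 907 CPM to 2572 and 2223 CPM, a smaller fitted rise of 1.25 ± 0.13. Troponin T, which ties the complex to tropomyosin, showed 1818 and 1826 CPM and then 4379 and 5135 CPM for the cardiac gene Tnnt2 (chr1:135836354-135852260; 1.36 ± 0.12). Tnni1 and Tnnt2 did not overlap between the stages. Among the actins, Actc1 (cardiac) rose by 1.42, Acta2 (smooth muscle) by 1.66 and Acta1 (skeletal) by 2.26. The leiomodins Lmod3 and Lmod2, which start thin filaments, rose by 2.96 and 2.91. The faller, the nonmuscle tropomyosin Tpm4, changed by -0.41 and had an adjusted p of 0.0652 without E7.75 replicate 1, 0.221 without E7.75 replicate 2 and 0.222 without E8.25 replicate 1.

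Among Z-disc, titin and M-band genes, 21 of 25 rose and none fell (median 1.50). Flnc, Cmya5, Trim63 and Ablim1 did not pass, and Myoz2, Myom2 and Xirp2 did not pass the level filter. Titin (Ttn, chr2:76703980-76982547), the spring that spans the sarcomere from Z-disc to M-band, stood at 726 and 652 CPM and then at 1585 and 3106 CPM (1.67 ± 0.21). The Z-disc crosslinker alpha-actinin 2 (Actn2, chr13:12269426-12340760) went from 66.9 and 45.9 CPM to 341 and 228 CPM (2.30 ± 0.21). The groups did not overlap for either gene. Trim55, a ubiquitin ligase bound to titin, rose by 3.35, Myom1, a crosslinker of the M-band, by 2.10, and the heat shock protein gene Hspb7 by 2.05.

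**Figure D3:**
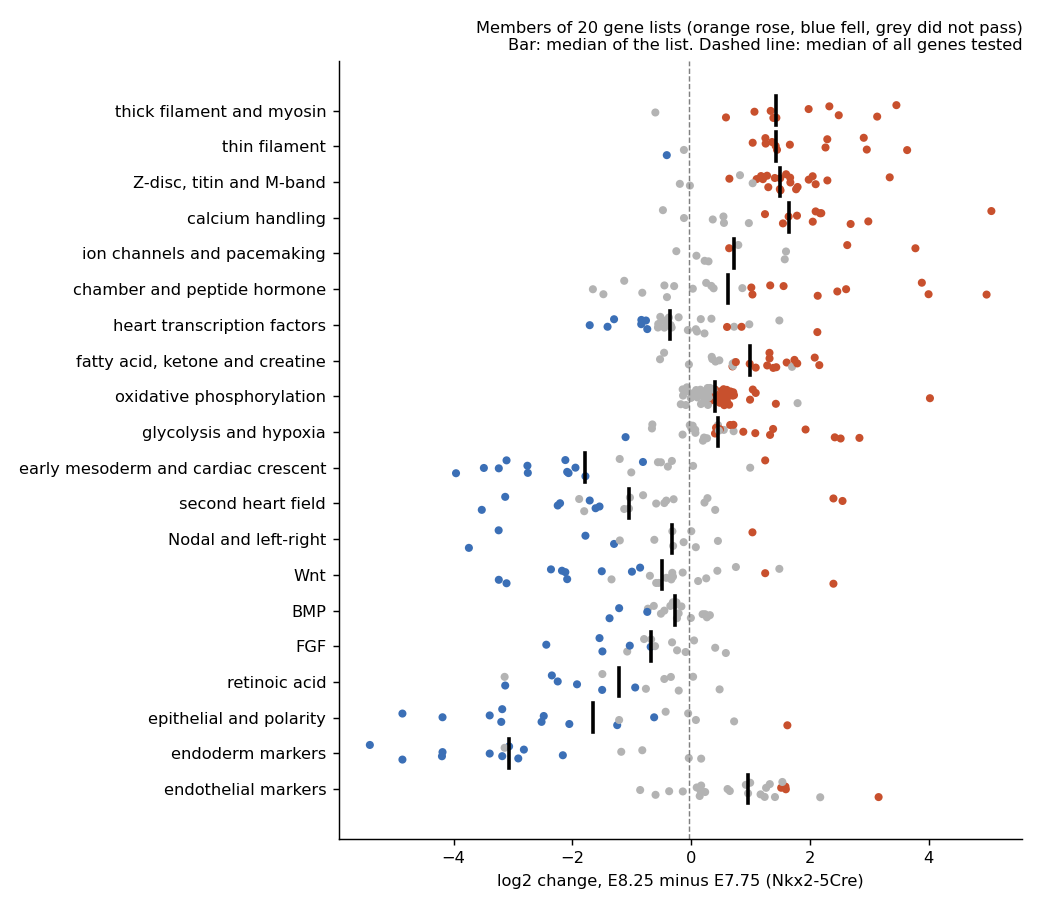
Log2 change from E7.75 to E8.25 of the tested members of the main gene lists, 1 point per gene and 1 line per list, orange for genes that rose by limma's test, blue for genes that fell and grey for the others, with a bar at each list's median and a dashed line at the all-gene median of -0.03. The medians of the sarcomere and calcium lists lie to the right of the dashed line, and those of the endoderm, early mesoderm and epithelial lists to the left.

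Of the 22 tested chamber and peptide hormone genes, 10 rose and none fell (median 0.62). Nppa (chr4:148000722-148002079) and Nppb (chr4:147985788-147987205) are neighbours on chromosome 4 and encode the natriuretic peptides ANP and BNP, hormones released by heart muscle. Nppa stood at 8.87 and 17.2 CPM at E7.75 and 546 and 332 CPM at E8.25. The lower E8.25 library was far above the higher E7.75 library, and the change was 4.98 ± 0.29 (adjusted p = 1.21e-09). Nppb went from 17.3 and 7.65 CPM to 288 and 142 CPM, with means of 12.5 ± 6.81 and 215 ± 103 CPM (SD, n = 2; adjusted p = 4.37e-07). Cck (chr9:121489824-121495694), which encodes the peptide hormone cholecystokinin, stood at 24.7 and 21.8 CPM and then at 419.8 and 309.98 CPM (3.89 ± 0.20). Tdgf1, an outflow tract gene on the same list, rose by 1.03, with an adjusted p of 0.137 without E7.75 replicate 1, 0.0557 without E7.75 replicate 2, 0.0565 without E8.25 replicate 1 and 0.131 without E8.25 replicate 2.

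The promoters of these genes and of the sarcomere genes that rose were read from RefSeq (GRCm38.p6, the first promoter the table gives for a gene, 250 bases before to 50 after the start), and they are shown because their genes moved together. A promoter was found for 36 of the 43 sarcomere genes that rose. Motifs were searched on both strands with exact letters: the CArG box bound by SRF, the MEF2 box, the GATA site (AGATAA or TGATAA) and the NKX2-5 site (TNAAGTG). The search found a CArG box in 7 of the 36 promoters (19.44%), against 1.57% of all 27025 promoters and 1.46% of the 8201 promoters of tested genes. A MEF2 box was found in 3 (Mybpc3, Synpo2l and Ttn; 8.33%, against 0.57% of all promoters and 0.57% of those of tested genes). GATA sites were found in 11 of the 36 (30.56%, against 18.95% and 9.52%) and NKX2-5 sites in 3 (8.33%, against 11.47% and 8.17%). In the promoters of Nppa and Nppb, printed here as the 250 bases before the start, capitals mark GATA matches and, in Nppa, the first match is the NKX2-5 site.
Nppa (chr4:148000472-148000721, plus strand): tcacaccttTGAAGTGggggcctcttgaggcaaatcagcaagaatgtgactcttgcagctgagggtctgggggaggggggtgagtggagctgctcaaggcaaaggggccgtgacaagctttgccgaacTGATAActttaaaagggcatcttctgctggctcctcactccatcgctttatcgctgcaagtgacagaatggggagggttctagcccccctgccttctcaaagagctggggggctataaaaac
Nppb (chr4:147985650-147985899, plus strand): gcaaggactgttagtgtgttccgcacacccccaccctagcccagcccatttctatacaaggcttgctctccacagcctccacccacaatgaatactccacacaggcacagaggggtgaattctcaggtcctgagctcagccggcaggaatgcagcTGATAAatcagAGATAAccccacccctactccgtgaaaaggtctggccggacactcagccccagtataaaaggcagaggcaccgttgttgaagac
The Nppa promoter holds the NKX2-5 match at -241 and a GATA match at -122 from the RefSeq start, and the Nppb promoter GATA matches at -95 and -84. The Nppb window runs into its gene model, which starts at chr4:147985788. Neither holds a CArG or MEF2 box within the window. A match of letters is a description and shows no binding.

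The 7 sarcomere promoters with a CArG box are printed as the 120 bases before the start, with the box and any GATA match in capitals.
Acta1 (chr8:123894776-123894895, minus strand): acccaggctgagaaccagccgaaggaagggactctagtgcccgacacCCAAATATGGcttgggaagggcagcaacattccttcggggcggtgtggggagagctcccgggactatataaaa
Actc1 (chr2:114052876-114052995, minus strand): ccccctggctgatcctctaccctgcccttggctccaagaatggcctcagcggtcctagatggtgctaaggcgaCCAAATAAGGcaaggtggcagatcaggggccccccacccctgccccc
Myl7 (chr11:5898783-5898902, minus strand): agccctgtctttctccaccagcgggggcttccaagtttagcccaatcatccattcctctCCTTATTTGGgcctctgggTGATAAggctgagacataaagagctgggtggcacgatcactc
Myl3 (chr9:110763558-110763677, plus strand): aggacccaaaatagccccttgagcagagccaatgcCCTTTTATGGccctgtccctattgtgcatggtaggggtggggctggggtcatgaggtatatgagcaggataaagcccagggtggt
Ldb3 (chr14:34588682-34588801, minus strand): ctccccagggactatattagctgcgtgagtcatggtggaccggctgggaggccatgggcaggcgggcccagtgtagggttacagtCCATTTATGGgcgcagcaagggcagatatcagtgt
Fhl2 (chr1:43196762-43196881, minus strand): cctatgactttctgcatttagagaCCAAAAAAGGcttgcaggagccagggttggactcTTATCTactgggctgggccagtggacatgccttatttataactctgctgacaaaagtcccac
Myom1 (chr17:71019437-71019556, plus strand): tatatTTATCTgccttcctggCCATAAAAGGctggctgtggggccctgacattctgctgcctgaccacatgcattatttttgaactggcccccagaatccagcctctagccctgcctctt
The boxes start between -99 (Myom1) and -35 (Ldb3) from the RefSeq start used, which need not be the start of the gene model. The Myom1, Myl3 and Actc1 windows lie inside their gene models (chr17:71002633-71126856, chr9:110741861-110769798 and chr2:114047282-114053548). The genes are an actin of skeletal and an actin of cardiac muscle, an atrial and a ventricular light chain, 2 LIM-domain proteins of the Z-disc (Ldb3, Fhl2) and the M-band gene Myom1, and the changes of Acta1, Actc1, Myl7, Myl3 and Myom1 were 2.26, 1.42, 1.07, 1.98 and 2.10.

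Of 17 tested calcium handling genes, 11 rose and none fell (median 1.64). Triadin (Trdn, chr10:33080554-33476709), a protein of the calcium store bound to its release channel, stood at 0.918 and 13.5 CPM at E7.75 and 168 and 189.6 CPM at E8.25. The E7.75 libraries differed from each other but stayed far below both E8.25 libraries (5.06 ± 0.56, adjusted p = 5.07e-06). The release channel itself, Ryr2 (chr13:11553102-12106945), was already present at 79.9 and 62.8 CPM and stood at 154 and 189.6 CPM at E8.25 (1.24 ± 0.20). Casq1, a calcium-binding protein of the store, rose by 2.98 and Srl, sarcalumenin, by 2.19. The pump that refills the store, Atp2a2 (chr5:122453513-122502225), was at 446 and 239 CPM and then at 352 and 262 CPM, and its difference of -0.12 ± 0.20 did not pass (adjusted p = 0.751). Its inhibitor phospholamban (Pln) had means of 1.35 ± 0.383 and 14.8 ± 6.66 CPM (SD, n = 2; 2.69 ± 0.66, adjusted p = 0.01), with an adjusted p of 0.0657 without E7.75 replicate 2 and 0.0979 without E8.25 replicate 1. In the ion channel and pacemaking list 3 of 10 genes rose and none fell (30.0%, median 0.72). Kcnk3 (chr5:30588170-30625271), a background potassium channel, went from 1.55 and 0.443 CPM to 21.2 and 30.6 CPM (3.78 ± 0.52), with no overlap. Popdc2, a cyclic AMP binding membrane protein, rose by 0.64, with an adjusted p of 0.0914 without E7.75 replicate 2. The pacemaker channel Hcn4 differed by 1.58 ± 0.72 and did not pass (adjusted p = 0.162).

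Of 30 heart transcription factor genes tested, 3 rose and 7 fell (33.3% passed, against 13.7% of all genes; median -0.35). Nkx2-5 (chr17:26838664-26845009), the gene the Cre line is named for, stood at 260.2 and 230.1 CPM at E7.75 and 276 and 255 CPM at E8.25 (difference 0.10 ± 0.16, adjusted p = 0.739). Gata4, Mef2c, Hand1, Hand2 and Myocd differed by -0.34, 0.23, -0.56, -0.33 and -0.05 and did not pass either. Hopx (chr5:77086988-77115121), a small homeodomain protein of differentiating heart muscle, went from 9.96 and 7.49 CPM to 36.3 and 47.5 CPM, a rise of 2.13 ± 0.30 (adjusted p = 8.46e-05). It passed with each library left out in turn, unlike the T-box factors Tbx5 and Tbx20. Tbx5 rose by 0.85, with an adjusted p of 0.11 without E7.75 replicate 1, 0.121 without E7.75 replicate 2, 0.0652 without E8.25 replicate 1 and 0.165 without E8.25 replicate 2. Tbx20 rose by 0.61, with an adjusted p of 0.417 without E7.75 replicate 2, 0.0954 without E8.25 replicate 1 and 0.15 without E8.25 replicate 2. Isl1 (chr13:116298281-116309689) stood at 50.9 and 54.1 CPM and then at 9.71 and 24.5 CPM, a fall of -1.71 ± 0.40 (adjusted p = 0.00793). Its stages did not overlap, but its adjusted p was 0.0652 without E7.75 replicate 2 and 0.131 without E8.25 replicate 1. Tbx3, Gata5, Gata6, Srf and Id3 were among the others that fell. Over the list, 2 genes fell without E7.75 replicate 1, 2 without E8.25 replicate 1 and 2 without E8.25 replicate 2, and 1 rose without E7.75 replicate 2 and 1 without E8.25 replicate 2.

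Genes of energy metabolism rose more often than they fell. In oxidative phosphorylation 36 of 77 nuclear-encoded genes rose and none fell (median 0.40), most of them by less than 1. Cox6a2 (chr7:128205435-128206387), the heart and muscle form of a cytochrome c oxidase subunit, went from 9.41 and 10.9 CPM to 212 and 155 CPM, a rise of 4.02 ± 0.26 (adjusted p = 5.02e-09). Cox7a1, a subunit form of the same muscle kind, rose by 1.43, and the succinate dehydrogenase genes Sdha and Sdhd by 1.09 and 1.04. The count was 17 without E7.75 replicate 1 and 18 without E8.25 replicate 1. In glycolysis 13 of 29 genes rose and 1, the glucose transporter gene Slc2a3, fell (median 0.45). Slc2a3 had an adjusted p of 0.167 without E7.75 replicate 1 and 0.0512 without E8.25 replicate 1. Hexokinase 1 (Hk1, chr10:62268855-62379908) went from 7.76 and 19.6 CPM to 101 and 91.3 CPM (2.84 ± 0.34), Pfkp, a phosphofructokinase, rose by 2.52, and Pgam2, the muscle phosphoglycerate mutase, by 1.93. Of 25 genes of fatty acid, ketone and creatine metabolism 14 rose and none fell (median 0.99), among them Fabp3, the heart fatty acid binding protein (2.08), Ppargc1a, a coactivator of mitochondrial genes (2.16), and brain-type creatine kinase Ckb (1.79). Of 23 cholesterol synthesis genes 12 rose and none fell (median 0.84). Msmo1, a methylsterol oxidase, stood at 39.5 and 30.3 CPM and then at 149 and 147 CPM (2.05 ± 0.23), and Hmgcs1, which makes HMG-CoA, at 40.1 and 50.9 CPM and then at 147 and 133 CPM (1.59 ± 0.20). Both stood apart between the stages. The cholesterol count was 5, 7 and 5 without E7.75 replicate 1, E7.75 replicate 2 and E8.25 replicate 1.

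Genes of early mesoderm and the crescent fell: of 21 tested, 12 fell and 1 (Rspo3) rose, with a median of -1.78. Rspo3, a Wnt agonist, had an adjusted p of 0.334 without E7.75 replicate 1, 0.15 without E8.25 replicate 1 and 0.107 without E8.25 replicate 2. T, Eomes and Mesp1, which act before the crescent forms, did not pass the level filter. Beside Ifitm1 and Sfrp5, the list held Dkk1, a secreted Wnt inhibitor, which went from 30.0 and 21.8 CPM to 1.87 and 2.37 CPM (-3.11 ± 0.71), with an adjusted p of 0.0522 without E7.75 replicate 1. Apoa1, an apolipoprotein gene, went from 213 and 1.92 CPM to 0.647 and 0.565 CPM. At E7.75 it was high in replicate 1 only. It is also made by endoderm, whose marker sum was 974 and 362 CPM at E7.75, and a relation between the 2 was not tested. Apoa1 had an adjusted p of 0.613 without E7.75 replicate 1, 0.113 without E8.25 replicate 1 and 0.134 without E8.25 replicate 2. Without cells carrying 300 CPM of endothelial, endoderm or blood markers, 7 of the list's genes fell.

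Second heart field genes fell more often than they rose: of 22 tested, 7 fell and 2 rose (median -1.04). Tbx1 (chr16:18580979-18590671), a T-box factor of the pharyngeal mesoderm and endoderm, stood at 11.7 and 11.5 CPM at E7.75 and 0.198 and 0 CPM at E8.25. It was near or at 0 at the later stage (-3.52 ± 0.53, adjusted p = 1.51e-04). Fgf8 (chr19:45736798-45742915), a growth factor of the crescent and pharynx, went from 117 and 144 CPM to 46.7 and 42.3 CPM (-1.54 ± 0.29). Aldh1a2 (chr9:71215789-71296243), which makes retinoic acid, went from 19.2 and 12.7 CPM to 0.087 and 2.35 CPM (-3.13 ± 0.62), and the retinoid-responsive gene Hoxb2 fell by -2.21. The risers were Wnt11 (chr7:98835112-98855195), a Wnt of the outflow tract that acts without beta-catenin, from 5.22 and 9.12 CPM to 43.2 and 39.4 CPM (2.40 ± 0.31), and Sema3c, an outflow guidance cue (2.55 ± 0.55). Sema3c had an adjusted p of 0.0656 without E7.75 replicate 1 and 0.0587 without E8.25 replicate 1, and without E7.75 replicate 1 the list had 1 riser.

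In signalling, Nodal and its feedback inhibitor Lefty2, genes of the left side of the early embryo, fell. Nodal (chr10:61417972-61425338) stood at 40.0 and 51.1 CPM and then at 2.68 and 5.61 CPM (-3.24 ± 0.55, adjusted p = 5.57e-04). Lefty2 (chr1:180893108-180899103) stood at 69.0 and 53.0 CPM and then at 5.97 and 2.07 CPM (-3.74 ± 0.59, adjusted p = 2.71e-04). In both genes the E7.75 libraries were well above the E8.25 libraries. The coreceptor gene Cfc1 also fell (-1.78). Over the Nodal list 1 of 13 genes rose and 4 fell (median -0.32), and none rose without any 1 of the 4 libraries.

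Of 26 Wnt genes 2 rose and 9 fell (median -0.48), among the fallers the receptor gene Fzd7 (-2.36) and the feedback inhibitor gene Nkd1 (-2.17). Nkd1 had an adjusted p of 0.0548 without E7.75 replicate 1. Over the list 3 genes fell without E7.75 replicate 1, and 1 rose without E7.75 replicate 1, E8.25 replicate 1 or E8.25 replicate 2. Of 15 FGF genes 5 fell and none rose (median -0.67), the receptor gene Fgfr3 by -2.44; 2 fell without E7.75 replicate 2 and 3 without E8.25 replicate 2. Of 14 retinoic acid genes 6 fell and none rose (median -1.22), among them the binding protein gene Crabp1 (-1.92). There were 3 fallers without E7.75 replicate 1 and 3 without E8.25 replicate 2. Of 19 BMP genes 3 fell and none rose (15.8%, near the 13.7% of all genes tested, median -0.27). The ligand genes Bmp4 and Bmp2 differed by -0.51 and 0.24 and did not pass. No BMP gene passed without E7.75 replicate 1, and 1 passed without either E8.25 library. Of 10 hedgehog genes 3 fell and none rose (median -0.89), with the signal transducer Smo at -1.43; 1 fell without E7.75 replicate 1 and 1 without E8.25 replicate 1. Of 12 Notch genes 1 rose and 1, the ligand gene Jag1, fell (16.7%, near the 13.7% of all genes tested, median -0.28). None rose without any 1 of the 4 libraries, and without E8.25 replicate 1 the median was 0.02. Jag1 changed by -1.41, with an adjusted p of 0.0513 without E8.25 replicate 1. Of 14 Hox genes 3 fell and none rose (21.4%, median -0.07). The shares that passed were 42.3% of the Wnt, 33.3% of the FGF, 42.9% of the retinoic acid and 30.0% of the hedgehog genes. In the list of pluripotency and Lin28 genes 5 of 12 fell and 2 rose (58.3%, median -1.03). Lin28a (chr4:134003330-134018841), which blocks the maturation of let-7 miRNAs, went from 229 and 203 CPM to 90.3 and 102 CPM (-1.18 ± 0.25), and its relative Lin28b fell by -1.40. The list had 1 riser without E7.75 replicate 1 and none without any of the other 3 libraries.

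Many epithelial and endoderm genes fell, among them Apela, Spink1, Cldn6 and Epcam, which are themselves part of the endoderm marker sum. Of 16 epithelial and polarity genes 10 fell and 1 rose (median -1.65), and of 15 endoderm markers 10 fell and none rose (median -3.07). Some genes, such as Epcam and Cldn6, are on both lists. Apela (chr8:65028417-65037336), a secreted peptide that signals through the apelin receptor, stood at 111 and 63.8 CPM and then at 1.78 and 0.457 CPM (-5.41 ± 0.59). Cldn6 (chr17:23679249-23682446), a tight junction protein, went from 50.6 and 28.0 CPM to 0.218 and 0.460 CPM (-4.86 ± 0.48), and Epcam (chr17:87635979-87651129), an epithelial adhesion protein, from 30.6 and 28.1 CPM to 0.374 and 1.04 CPM (-4.19 ± 0.50). Both E8.25 libraries were near 0 for these genes. Spink1, a protease inhibitor made by gut endoderm, fell from 557 and 222 CPM to 44.0 and 39.2 CPM (-3.07 ± 0.33). Krt19, a keratin, rose by 1.62. Without the cells that carried 300 CPM of another type's markers, 4 of 11 epithelial genes fell and 2 rose (median -0.81), and 7 of 12 endoderm genes fell (median -2.08). In the first E7.75 library that limit took out 68 of 91 cells for endoderm markers. It is set on genes that include Apela, Spink1, Cldn6 and Epcam, so smaller falls of these genes under it are not a separate result. Without E7.75 replicate 1, which held most of the cells with endoderm markers, 6 epithelial genes fell (median -1.36) and 8 endoderm genes (median -2.42). Of 15 genes of intercalated discs and junctions 5 rose and the gap junction gene Gja1 fell (40.0%, median 0.32). N-cadherin (Cdh2), the adhesion protein of heart muscle, went from 92.2 and 64.6 CPM to 192 and 227 CPM (1.41 ± 0.18). That list had 3 risers without E7.75 replicate 1, 2 without E7.75 replicate 2 and 2 without E8.25 replicate 2.

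Of 25 endothelial markers tested, 4 rose and none fell (median 0.96): Tie1, Plvap, Etv2 and Npr3. That is 16.0%, near the 13.7% of all genes that passed. Tie1, a receptor of endothelial cells, stood at 0.693 and 1.56 CPM and then at 12.8 and 24.7 CPM (3.16 ± 0.65), with the first E7.75 library lowest. That library also had the fewest cells with 300 CPM of endothelial markers, 3 against 14, 15 and 15. The list had 1 riser without E7.75 replicate 1, 7 without E7.75 replicate 2 and 1 without E8.25 replicate 2. Without cells carrying 300 CPM of another type's markers, no endothelial marker of 13 rose and 3 fell (median -0.01). Npr3 then changed sign, from 1.52 ± 0.39 to -0.37. With 1 library left out, Npr3 had an adjusted p of 0.0628 without E7.75 replicate 1, 0.0627 without E7.75 replicate 2 and 0.148 without E8.25 replicate 2. Without cells carrying 1000 CPM, none of 17 rose and 1 fell (median 0.03). Both limits are set on endothelial markers that include Tie1 and Plvap. Taking out the cells high in these genes lowers them by construction, so the loss of their rises is not a separate result.

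The shares of matrix and guidance genes that passed are given to be set beside the 13.7% of all genes tested. Calls were mostly fewer when 1 library was left out, as they were over all genes. Of 32 integrin and matrix genes 5 rose and 1 fell (18.8%, median 0.24), with the laminin receptor gene Itga6 up by 2.25 ± 0.32; 3 rose without E7.75 replicate 2 and 3 without E8.25 replicate 1, and none fell without E7.75 replicate 2. Of 10 cardiac jelly genes 3 rose and 1 fell (40.0%, median 0.44). The proteoglycan gene Vcan rose by 0.68 and the hyaluronan synthase gene Has2 changed by -1.11. Vcan had an adjusted p of 0.297 without E7.75 replicate 1, 0.0522 without E7.75 replicate 2 and 0.481 without E8.25 replicate 2, and Has2 of 0.139 without E7.75 replicate 1, 0.091 without E7.75 replicate 2, 0.0668 without E8.25 replicate 1 and 0.145 without E8.25 replicate 2. No cardiac jelly gene rose without E7.75 replicate 1, E7.75 replicate 2 or E8.25 replicate 2, and 1 rose without E8.25 replicate 1. Of 21 semaphorin and guidance genes 3 rose and 2 fell (23.8%, median -0.14). Without E7.75 replicate 1 none rose or fell, without E8.25 replicate 1 there was 1 riser and no faller, and without either other library 1 riser and 1 faller. Of 12 smooth muscle and mesenchyme markers 3 rose, Tagln by 1.67, and 1 fell (33.3%, median 0.04).

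The shares of cell cycle genes that passed were 11.1% in S phase, 7.1% in G2 and M phase and 11.1% of cyclins and inhibitors. Of all genes tested 13.7% passed, and the S phase and cyclin shares lay near that. Of 36 S phase genes 4 fell and none rose (median -0.27), the nucleotide enzyme genes Dut (-0.88) and Rrm2 (-0.65) among them; without E7.75 replicate 2 there were 2. Of 42 genes of G2 and M phase 3 fell and none rose (median -0.30). Without E7.75 replicate 1 the list had 1 riser and no faller, without E7.75 replicate 2 no riser and 1 faller, and without E8.25 replicate 1 it had 4 risers and 1 faller, so the balance of directions turned. Of 18 cyclins and inhibitors, Cdkn1c (0.64), an inhibitor of the cell cycle, rose and Cdk4 (-0.63) fell (median 0.04). Cdkn1c had an adjusted p of 0.0528 without E7.75 replicate 1 and 0.15 without E8.25 replicate 2, and Cdk4 of 0.0511 without E8.25 replicate 2.

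Of 17 imprinted genes 3 rose and 4 fell (41.2%, against 13.7% of all genes tested, median 0.06). H19 (chr7:142575529-142578143), a long noncoding RNA, stood at 1062 and 973 CPM and then at 499 and 508 CPM (-1.03 ± 0.13), and Phlda2, a growth-restraining gene, at 838 and 670.2 CPM and then at 179.8 and 191 CPM (-2.02 ± 0.25). The list had 1 riser without E7.75 replicate 1 and none without E8.25 replicate 2. Of 23 immediate early and heat shock genes 2 rose and 3 fell (21.7%, median -0.24), with the chaperone gene Hsph1 at -1.20. Of the smaller marker lists, 1 of 6 blood markers rose (Cited4, 2.55; 16.7%). Of 5 epicardial markers and of 5 neural markers 1 rose and 1 fell (40.0% each). None of 8 extra-embryonic mesoderm markers passed. The epicardial list had no riser without E7.75 replicate 2 or either E8.25 library, and the neural list no faller without either E7.75 library or E8.25 replicate 2. Some list medians near 0 changed sign with 1 library left out: they ran from -0.19 to 0.05 for Hox genes, from -0.57 to 0.02 for guidance genes, from -0.07 to 0.20 for imprinted genes and from -0.31 to 0.39 for smooth muscle markers, and the median of cyclins and inhibitors was -0.09 without E7.75 replicate 1. Smooth muscle markers had no faller without E7.75 replicate 1 or E8.25 replicate 2. All lists together held 719 tested genes, each counted once, of which 181 rose and 94 fell.

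Sex-linked genes separated the stages. Xist, the RNA that coats the inactive X chromosome of females, stood at 0.356 and 0.669 CPM at E7.75 and 33.9 and 70.7 CPM at E8.25, and the Y-linked genes Ddx3y, Eif2s3y, Uty and Kdm5d fell, Eif2s3y from 42.5 and 37.7 CPM to 1.33 and 0.349 CPM. The change of Kdm5d had an adjusted p of 0.216 without E7.75 replicate 1, 0.0965 without E7.75 replicate 2 and 0.266 without E8.25 replicate 1. On the X chromosome, 29 of 362 tested genes rose and 27 fell (15.5%), and on the autosomes 759 and 597 of 9914 (13.7%). The part of embryo sex in the other changes was not tested.

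Per cell, the sarcomere share was higher in most E8.25 cells than in most E7.75 cells, while Nppa was spread unevenly. The 54 sarcomere genes took a median of 1.83% and 1.81% of a cell's CPM in the E7.75 libraries (middle range of cells 1.11% to 4.01% and 0.828% to 4.06%). At E8.25 the medians were 7.26% and 6.96% (6.18% to 8.47% and 5.61% to 8.54%). Of 186 E7.75 cells, 2 reached the E8.25 median of 7.17%, while 28 of 187 E8.25 cells were under 2%, against 97 at E7.75. Of those 28 cells, 18 carried endothelial markers.

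Cells were also thinned to 5000 counts, which left out the shallower ones and kept 88 and 89 cells at E7.75 and 92 and 91 at E8.25. Myl2 then had a count in 46.59% and 40.45% of cells at E7.75 and in 97.83% and 81.32% at E8.25, and Cck in 11.36% and 3.37% and then in 47.83% and 37.36%. Nppa had a count in 3.41% and 3.37% of E7.75 cells and in 47.83% (exact 95% binomial interval 37.3% to 58.5%) and 31.87% (22.49% to 42.47%) of E8.25 cells. Unthinned, where depth differs between the stages, Nppa had a count in 51.65% and 49.47% of E7.75 cells and in 98.94% and 83.87% of E8.25 cells, Myl2 in 97.8% and 96.84% of E7.75 cells and in all cells of both E8.25 libraries, and Cck in 82.42% and 58.95% and then in 94.68% and 91.4%. The 10 cells with most Nppa held 55.9% and 64.5% of its summed CPM at E8.25, where the median cell had 87.8 and 26.9 CPM. For background, Nppa had a count in 0 of 7 (which allows a share of up to 42.9%) and 1 of 11 thinned cells carrying 1000 CPM of endothelial markers at E8.25, against 51.76% and 35.0% of the remaining cells. Myl2 had a count in 6 of 7 and 4 of 11 of these thinned cells, against 98.82% and 87.5% of the remaining cells. A count of Myl2 in a cell is therefore not read as expression by that cell. The same endothelial-marker cells averaged 53.3 and 20.9 CPM of Nppa, not far below the median cell of their library, and no difference in expression is read from the unthinned shares. The median depth was 202842 counts in those endothelial-marker cells and 186600 in the remaining cells of replicate 1, and 95969 and 127312.5 in replicate 2. Nkx2-5 had a count in 62.5% and 66.29% of thinned cells at E7.75 and in 68.48% and 67.03% at E8.25, and unthinned in 98.9%, 94.74%, 95.74% and 94.62%.

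Among fallers, Ifitm1 went from 71.59% and 73.03% of thinned cells to 5.43% and 16.48%, and Sfrp5 from 57.95% and 42.7% to 9.78% and 8.79%. Unthinned, Ifitm1 went from 97.8% and 97.89% to 54.26% and 56.99%, and Sfrp5 from 96.7% and 89.47% to 51.06% and 44.09%. Isl1 went from 17.05% and 21.35% of thinned cells to 2.17% and 4.4%. Unthinned, Isl1 had a count in 85.71% and 76.84% of E7.75 cells and in 23.4% and 20.43% of E8.25 cells, where 10 cells held 89.2% and 94.7% of its sum, against 46.2% and 46.4% at E7.75. Nodal went from 18.18% and 20.22% of thinned cells to 1.09% and 1.1%, and unthinned from 90.11% and 84.21% to 26.6% and 5.38%.

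**Figure D4:**
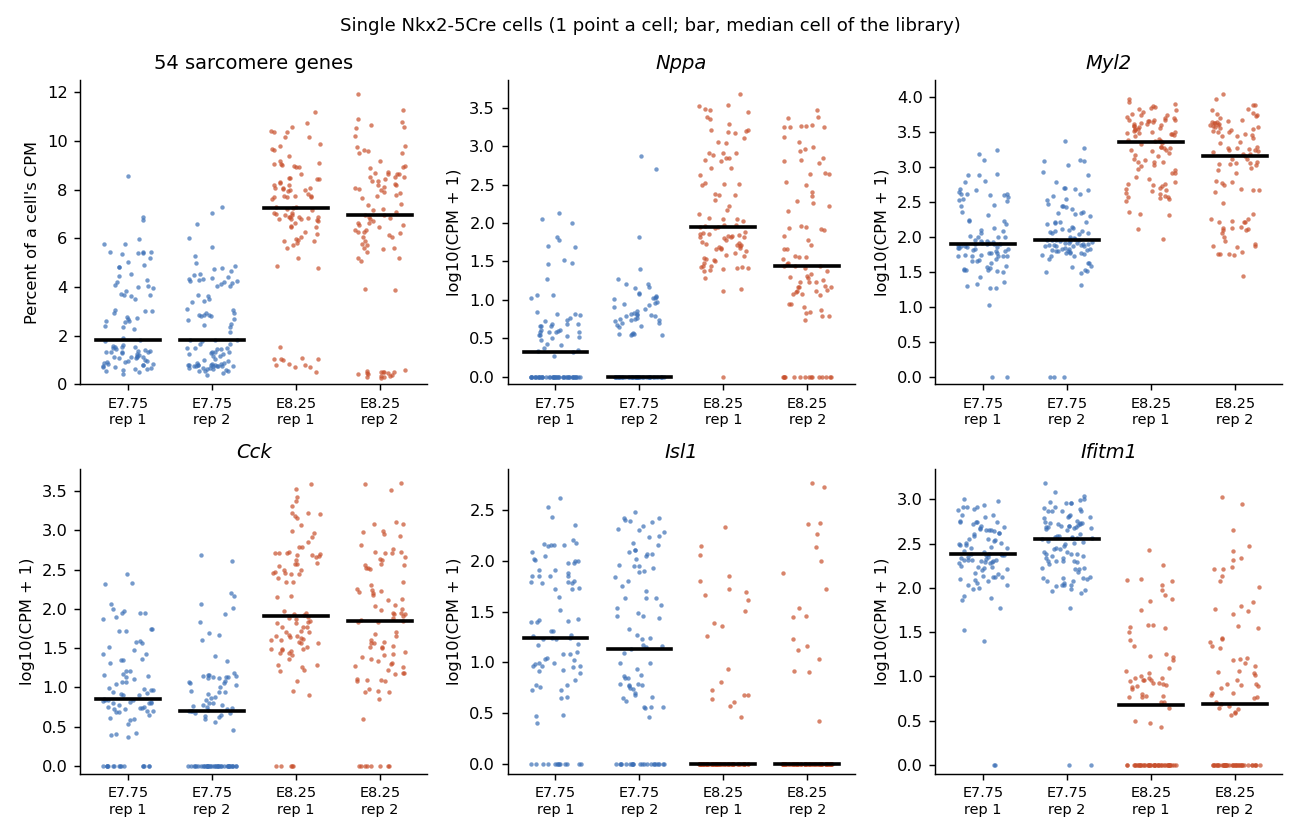
Single Nkx2-5Cre cells of the 4 libraries, 1 point per cell and a bar at the median cell, as the percent of a cell's CPM in sarcomere genes (first panel) and as log10(CPM + 1) of Nppa, Myl2, Cck, Isl1 and Ifitm1. The sarcomere medians stand at 1.83% and 1.81% at E7.75 and 7.26% and 6.96% at E8.25, while Nppa is high in some E8.25 cells and low in others.

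In the Isl1Cre embryos 1272 genes passed over the same step (11.9%), of which 798 rose (7.48%) and 474 fell (4.44%). The difference between the Isl1Cre and the Nkx2-5Cre change was tested for each gene and passed for 200 genes (1.87%), 109 with the more positive change in Isl1Cre (1.02%) and 91 in Nkx2-5Cre (0.853%). Without the TMM scaling the split was 167 and 88. The number was 105 without Nkx2-5Cre E7.75 replicate 1, 395 without E8.25 replicate 1 and 80 without E8.25 replicate 2. The libraries of a stage and lineage again probably share an embryo, so lineage, embryo and embryo sex cannot be told apart. Of the 5 sex-linked genes 0 passed in Isl1Cre, and the difference between the lineages passed for 3.

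Sarcomere genes rose in both lineages. In Isl1Cre 10, 12 and 22 genes of the thick filament, thin filament and Z-disc lists rose, and the difference from Nkx2-5Cre passed for 4, 1 and 3 genes. Myh6 went from 99.4 and 138 CPM to 847 and 906 CPM in Isl1Cre and from 456 and 305 CPM to 913 and 1065 CPM in Nkx2-5Cre. Isl1Cre stood lower at E7.75, and its change exceeded that of Nkx2-5Cre by 1.42 ± 0.24 (adjusted p = 0.00378). The same difference was 1.60 ± 0.29 for Actn2 and 1.24 ± 0.30 for Acta1. Nppa stood at 3.65 and 2.80 CPM and then at 121 and 72.7 CPM in Isl1Cre, and its difference of -0.55 ± 0.41 did not pass (adjusted p = 0.56). Chchd10 (-1.66) and Klhl31 (-1.42) had the more positive change in Nkx2-5Cre.

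The change of Kcnk3 differed between the lineages. In Isl1Cre it stood at 2.80 and 16.0 CPM at E7.75, with the 2 libraries well apart, and at 4.90 and 2.82 CPM at E8.25, within the range of the E7.75 pair, so that no change was called there (-0.83, adjusted p = 0.355). The difference from the Nkx2-5Cre change was -4.61 ± 0.74 (adjusted p = 0.00234). Nodal and Lefty2 had changes of opposite sign, each of which passed in both lineages. In Isl1Cre, Nodal was at 0 and 0 CPM at E7.75 and 3.39 and 6.23 CPM at E8.25, and Lefty2 at 0 and 0.670 CPM and then at 13.6 and 7.52 CPM. The differences were 5.70 ± 0.78 (adjusted p = 6.69e-04) and 6.81 ± 0.84 (adjusted p = 2.14e-04), sizes that depend on the pseudocount because Isl1Cre stood at or near 0.

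Of the epithelial genes, Cldn6 stood at 46.2 and 29.8 CPM at E7.75 and 49.9 and 44.1 CPM at E8.25 in Isl1Cre, where no fall was seen, and its change differed by 5.11 ± 0.68 (adjusted p = 4.94e-04). Cells with 300 CPM of endoderm markers numbered 11 and 7 at E7.75 and 9 and 12 at E8.25 in Isl1Cre, against 68, 8, 0 and 1 in Nkx2-5Cre. The difference passed for 7 of the 15 endoderm markers and 5 of the 16 epithelial genes, and its relation to these cells was not tested. Of 23 cholesterol synthesis genes 4 passed as well, Msmo1 by -1.90 ± 0.33 and Hmgcs1 by -1.50 ± 0.29. In Isl1Cre, Msmo1 stood at 43.1 and 33.0 CPM and then at 57.0 and 35.0 CPM.

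**Figure D5:**
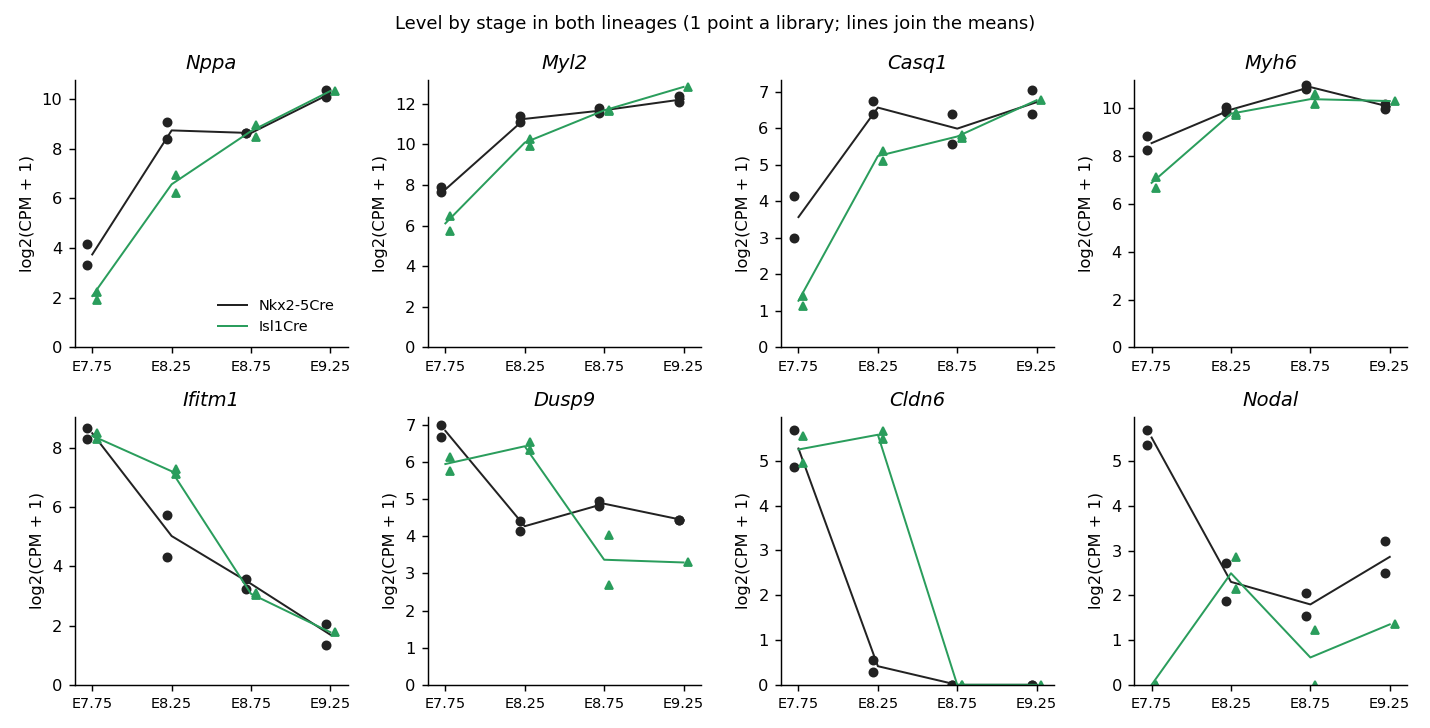
Level of 8 genes as log2(CPM + 1) at the 4 stages of the series, 1 point per library (black circles Nkx2-5Cre, green triangles Isl1Cre), with lines joining the means of each lineage. Nppa is low in both lineages at E7.75, Cldn6 at E8.25 is near 0 in Nkx2-5Cre and at 49.9 and 44.1 CPM in Isl1Cre, and Nodal at E7.75 is high in Nkx2-5Cre and at 0 in Isl1Cre.

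Few genes passed at the next step. From E8.25 to E8.75, 26 genes passed (0.244%), and the 2 steps share the E8.25 libraries. Of the 5 sex-linked genes 4 passed at this step (median 3.81), so stage, embryo and embryo sex cannot be told apart there either. The difference between the steps passed for 175 genes (1.64%), 50 with the more positive value at the later step (0.469%) and 125 at the earlier (1.17%). It passed for 59 genes without E8.25 replicate 1. Nppa, at 546 and 332 CPM at E8.25, stood at 400.05 and 391 CPM at E8.75 (next step -0.09 ± 0.29), and its steps differed by -5.07 ± 0.50 (adjusted p = 6.92e-06). Nppb stood at 285 and 276 CPM, Cck at 573 and 519 CPM and Myl2 at 3561 and 2992 CPM at E8.75. The E8.75 levels of Nppa lay within the range of the E8.25 libraries. Sfrp5, at 20.3 and 21.5 CPM at E8.25, stood at 14.5 and 63.3 CPM at E8.75, and its steps differed by 3.78 ± 0.84 (adjusted p = 0.0233). Casq1 and Chchd10, among the largest negative differences, had next-step changes of -0.57 and 0.34. Nppa, Sfrp5, Casq1 and Chchd10 were also among the largest changes of the first step, and the difference uses the libraries of that step again. Their differences therefore largely repeat the first-step change and are not separate support. In the first E8.75 library 39 of 94 cells carried 300 CPM of blood markers, against 1, 0 and 0 in the second E8.75 library and the E8.25 libraries, and the part of this in the next step was not tested.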

How the data were processed

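RNA was measured in single heart cells, picked by mouth pipette, with 3' capture and barcoded oligo(dT) primers, per the labels' protocols. CASAVA 1.8, TopHat2 2.0.12, HTSeq and the mm10 build are listed in the submitters' processing notes, without parameters or strand. The authors deposited CPM for each of 23154 genes in each cell; no mitochondrially encoded gene is included. In 100.0% of cases the values of up to 20 counts came out as whole numbers of counts (tolerance 0.1), so counts were recovered; whether these are reads or UMIs is not stated, and intervals cover counting error only. No doublet caller was run.

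Cells with 1000 or more genes were averaged per library. Library means were scaled by TMM (edgeR 4.0.16; factors 0.957 to 1.04), and log2(mean CPM + 1) was fitted in R 4.3.3 with limma 3.58.1 and a trended prior. All 15 libraries in 8 groups entered, with 7 residual degrees of freedom, for genes that reached 5 CPM in 2 or more libraries. Adjusted p-values are Benjamini-Hochberg values over all genes tested, with a threshold of 0.05. edgeR and DESeq2 1.42.0 on recovered counts were alternatives, as were another pseudocount, no filter, no TMM, other cell limits, thinning, a replicate block and each library left out. Tests were checked on simulated data with 50 genes changed at each fold, 200 of 10670 in all. That is a smaller share than passed here, so recovery in the data may differ. Simulated libraries differed only by the spread within groups, so the false calls do not cover differences between embryos or sexes. The step test recovered 4% of 1.5-fold, 38% of 2-fold, 54% of 4-fold and 88% of 8-fold changes, with 3 false calls (3.16% of calls). A gene that did not pass may therefore still have changed. Positions are GRCm38 with GENCODE gene models and promoters GRCm38.p6 from RefSeq; both share the mm10 sequence.

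Members, lists and tests were chosen with earlier results of these data known. Named genes are the 12 largest changes in each direction among genes past the threshold, an average log2 level of 5 or more and no overlap between stages, a panel of heart genes, up to 4 members per list and direction, and up to 6 genes per direction for each difference between steps. Other list members named were chosen after their values were seen. Counts cover all genes, but a few genes that the rule names are not reported here.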

Additional observations from a re-analysis of the deposited data

Results flagged for a closer look

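The results here were singled out because the difference between the Isl1Cre and the Nkx2-5Cre change from E7.75 to E8.25 itself passed limma's test, as it did for 200 of the genes tested. A positive value means the more positive change in Isl1Cre. Among sarcomere genes, the differences were 1.60 for Actn2, 1.42 for Myh6, 1.24 for Acta1, 1.14 for Myh7 and 0.72 for Myl3. Lefty2 (6.81) and Nodal (5.70), genes of left-right patterning, had positive differences too. Genes that fell in Nkx2-5Cre had positive differences of 2.98 (Dusp9), 2.83 (Spink1), 2.78 (Slc23a1), 2.20 (Ifitm1), 1.91 (Pkdcc) and 1.29 (Mfsd11). Rcor2, a corepressor gene, differed by 2.60. The more positive change was in Nkx2-5Cre for Chchd10 (-1.66), Klhl31 (-1.42), Arl6ip1 (-1.99), the imprinted gene Peg12 (-2.05), Dusp3 (-2.13) and Rab31 (-2.16). Rps15a-ps6 (3.53) and Gm1821 (-2.20) are pseudogenes and Erdr1 (-3.82) has near-identical copies, so reads of other copies may be counted there and their values are uncertain.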

How the results depend on the processing

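The number of genes that changed over the step, 1457, was 1051 with no filter on low values, 1428 with a pseudocount of 10, 1441 without TMM, 1475 with cells of at least 2000 counts, 1565 with edgeR and 2012 with DESeq2. It was 755 in a fit of the 4 Nkx2-5Cre libraries alone and 533 in cells thinned to 5000 counts, which keep fewer counts; with 1 library left out it was 849 to 1055. Without cells carrying 300 CPM of endothelial, endoderm or blood markers it was 1253, and 1454 at 1000 CPM, a limit added after the data were seen. The difference between lineages (200 genes) gave 121 with no filter, 470 with DESeq2, 50 in thinned cells and 80 to 395 with 1 library left out. The difference between steps (175 genes) gave 62 with no filter, 446 with DESeq2, 62 in thinned cells and 59 to 157 with 1 library left out. The 275 list genes that changed were 148 in thinned cells and 182 to 218 with 1 library left out. Npr3 reversed to -0.37 at both marker limits. Of 186 named genes 173 passed, and 80 of those kept call and direction under all alternatives; 75 lost the call in thinned cells. The causes of these shifts were not tested. With the replicate number as a replicate block the counts were 1488, 249, 201 and 278. Same-numbered Nkx2-5Cre libraries of E7.75 and E8.25 did not deviate together (r = -0.0007 across genes). That correlation does not cover the other groups, so whether the numbers mark a shared batch in the series was not tested. Depth limits low genes in thinned cells, which hold 5000 counts against library medians of 115013 to 360929.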
